A study of Mus musculus with 21 samples.

Results

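Zp1, Zp2 and Zp3 encode the glycoproteins of the mouse zona pellucida. The 3 genes were selected by symbol from 55335 gene identifiers, and their transcripts were followed in all 21 RNA-seq libraries of the series. The study asked how transplanted human umbilical cord mesenchymal stem cells (UC-MSCs) affect the ovary of aged mice, and sequenced RNA of oocytes (12 libraries) and of the granulosa cells that surround them (9 libraries). All mice were female and of the ICR strain. Young mice were 6 to 8 weeks old and received no cells. Aged mice were 18 months old, and 3 further groups of 18-month-old mice had received UC-MSCs under the ovarian capsule 3 weeks earlier. The cells given were unsorted (Aged + Unsorted), sorted for high surface LRP1 (Aged + LRP1high) or sorted for low LRP1 (Aged + LRP1low). LRP1 is an endocytic receptor that the study used as a sorting marker on the human cells. Oocyte groups held 3 Young, 2 Aged, 2 Aged + Unsorted, 3 Aged + LRP1high and 2 Aged + LRP1low libraries, and granulosa groups held 1, 2, 1, 3 and 2 in the same order. The host mice kept their own oocytes in every group, and how many animals or cells went into a library was not given in the sources used here.

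The zona pellucida is the extracellular coat of the oocyte. Growing oocytes synthesize its glycoproteins and secrete them as precursors, which are cut near their membrane anchor and polymerize outside the cell through a shared ZP domain. ZP2 carries the site to which sperm bind and is cleaved after fertilization, ZP3 pairs with ZP2 in the filaments, and ZP1 cross-links the filaments. Transcription of the genes depends on Figla, an oocyte basic helix-loop-helix factor that binds E-boxes together with a partner such as Tcf3. The transcripts are a classical marker of oocytes and are low in somatic cells of the follicle. In preparing the oocytes, the zona coat itself was digested with pronase before lysis, so these libraries describe the RNA and not the protein coat.

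The genes lie on different chromosomes (coordinates of GRCm38, GENCODE M21). Zp1 occupies chr19:10914287-10920632 on the minus strand with 12 exons, Zp2 occupies chr7:120126772-120145291 on the minus strand with 18 exons, and Zp3 occupies chr5:135980099-135988624 on the plus strand with 8 exons. Their transcripts are 1963, 2221 and 1323 bases long. The longest run of identical bases was 13 between Zp1 and Zp2, 11 between Zp1 and Zp3 and 10 between Zp2 and Zp3, so reads of these genes share no long stretch. Another relative, Zp4-ps, is a transcribed pseudogene on chromosome 13 in the mouse, and its longest run shared with Zp1 was 13 bases.

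A RefSeq promoter window (GRCm38.p6, 250 bases before to 50 after the start of transcription) was at hand for 1 of the 3 genes, Zp3. It is shown because E-boxes are the motif by which Figla is known to act on the zona genes. The part upstream of the annotated gene, chr5:135979855-135980098 on the plus strand, is printed 5′ to 3′ with matches to the E-box pattern CANNTG and to TATAA in capitals.
Zp3: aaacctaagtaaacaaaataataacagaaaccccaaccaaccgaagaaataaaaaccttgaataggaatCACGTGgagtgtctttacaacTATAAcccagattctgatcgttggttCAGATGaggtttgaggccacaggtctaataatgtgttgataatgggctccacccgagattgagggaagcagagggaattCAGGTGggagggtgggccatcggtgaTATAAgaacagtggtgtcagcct
The 3 E-box matches began at positions -181, -134 and -55 from the RefSeq start, and the TATAA matches at -160 and -29. CANNTG, which has the same pattern on both strands, occurred in 72.3% of the 32851 promoter windows, and TATAA on either strand in 24.9%. The whole Zp3 window held 4 matches to CANNTG, a number that 6.49% of windows reached, and no match overlapped another. These letters describe the window and were not tested as binding sites.

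Levels are given as deposited FPKM, a fragment count scaled to transcript length and to the mapped fragments of the library, which can be compared between genes because they are per length. Aligned sequence per library was 0.278 to 3.40 gigabases for oocytes and 0.335 to 1.49 gigabases for granulosa cells. The labelled cell type was checked with 7 oocyte genes other than the zona genes (Gdf9, Bmp15, Dppa3, Ooep, Nlrp5, Oosp1 and H1foo), chosen as classical markers, and with 10 granulosa genes. The median FPKM of the 7 genes was 105 to 1815 in 8 of the 12 oocyte libraries. In the other 4 it was 0.978 (Young 1), 12.7 (Aged 1), 4.76 (Aged + LRP1low 1) and 8.35 (Aged + LRP1low 2). The library labelled granulosa Aged + Unsorted stood apart in the opposite way. Its 7 oocyte genes had a median of 1555, its summed granulosa markers reached 21.2 with Fshr at 0, and its profile correlated with the library oocyte Aged + Unsorted 2 at a Spearman coefficient of 0.931 over 21767 genes, the highest of all pairs of libraries. In the other granulosa libraries the summed granulosa markers ranged from 1.2 to 1450. Young and Aged + LRP1high 3 had 8 of the 10 granulosa genes at 1 FPKM or more. Aged + LRP1high 2 had 0 of them (sum of 3.14) and Aged + LRP1low 2 had 1 (sum of 4.83). Luteal genes summed to 1789 FPKM in Aged + LRP1high 1 and 5660 in Aged + LRP1low 1, beside granulosa sums of 26.5 and 59.2. The granulosa Aged libraries had 0 of the 10 granulosa genes at 1 FPKM (sums of 1.2 and 1.55), 0 luteal genes at that level and 2734 and 2089 identifiers at 1 FPKM or more. Oocyte group differences are given with and without Young 1 and Aged 1, and the comparison of the cell types with and without the library labelled granulosa Aged + Unsorted. The Aged + LRP1low oocyte and the Aged granulosa group hold no other libraries, so their comparisons rest on those named here.

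In oocytes the zona transcripts ranged from 0 to 1228 FPKM, and libraries of one group could lie far apart, from 0 to 679 in Young and from 4.41 to 972 in Aged. Zp3, the most abundant of the 3 in 7 of the 8 libraries with high oocyte genes, is described first. In Young oocytes Zp3 stood at 0.803, 174 and 679 FPKM. In Aged oocytes it stood at 6.23 and 972 FPKM. The replicates of each of these groups therefore differed from each other by more than the group means did. In Aged + Unsorted oocytes Zp3 reached 503 and 1228 FPKM, and in Aged + LRP1high oocytes 876, 667 and 128 FPKM. The Aged + LRP1low oocytes had 5.75 and 4.09 FPKM. All 5 libraries of the former groups were above both Aged + LRP1low libraries, and their range overlapped that of Young and of Aged. At 1228 FPKM in Aged + Unsorted 2, Zp3 ranked 23 from the top of all identifiers, whereas 5.75 FPKM in Aged + LRP1low 1 corresponded to rank 14090.

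Zp2, which carries the sperm-binding site, was low in the same libraries. Its FPKM was 0, 52.1 and 541 in Young oocytes, 4.41 and 461 in Aged oocytes and 206 and 619 in Aged + Unsorted oocytes. Aged + LRP1high oocytes had 524, 143 and 169 FPKM, and Aged + LRP1low oocytes had 3.39 and 8.32 FPKM. Young 1 was the only oocyte library in which a zona gene was listed at 0, and there Zp1 and Zp3 were 1.37 and 0.803 FPKM.

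Zp1, the cross-linking member, was the lowest of the 3 genes in 6 of the 8 libraries with a median of 105 or more. Young oocytes had 1.37, 65.2 and 205 FPKM, Aged oocytes 23.0 and 212, and Aged + Unsorted oocytes 188 and 353. Aged + LRP1high oocytes had 219, 277 and 90.2 FPKM, and Aged + LRP1low oocytes had 8.83 and 6.89. Zp1 was the highest of the 3 genes in Young 1, Aged 1 and Aged + LRP1low 1, which are libraries with low levels of the other oocyte genes.

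**Figure D1:**
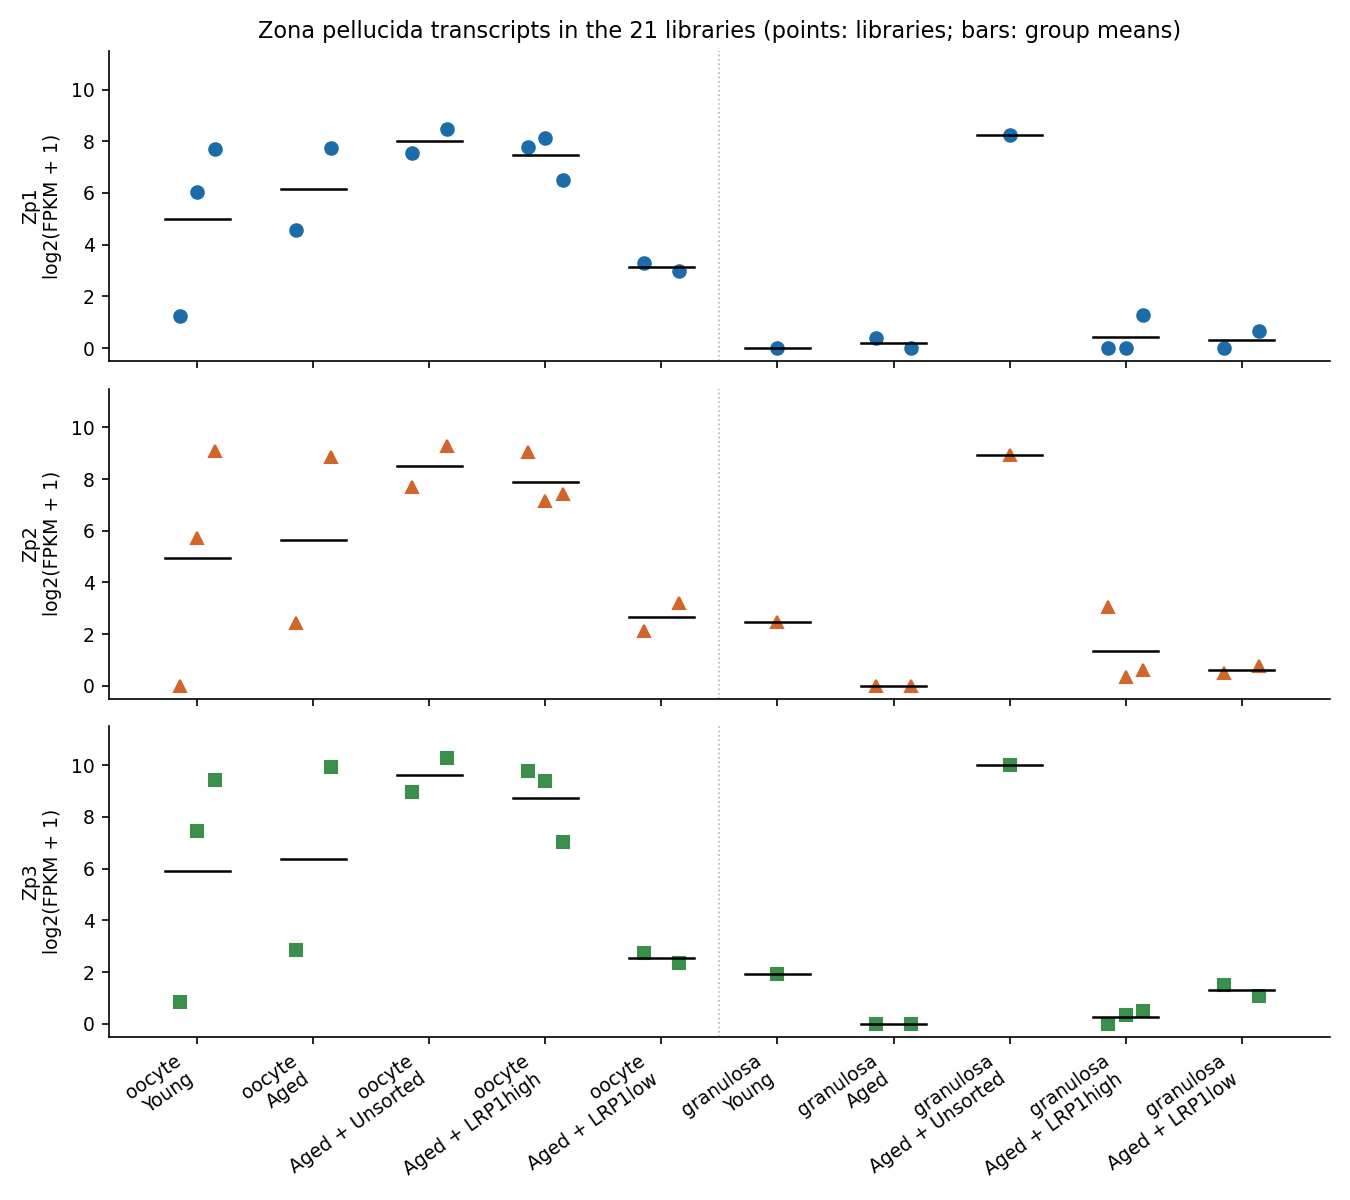
Level of Zp1, Zp2 and Zp3 in each library as log2(FPKM + 1), by cell type and group; points are libraries and horizontal bars are group means. In oocytes the Young and Aged groups are wide, Aged 1 and both Aged + LRP1low libraries lie below 5, and among granulosa libraries only the library labelled Aged + Unsorted lies at oocyte levels.

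The order of the oocyte groups by mean log2(FPKM + 1) was the same for each gene, from Aged + Unsorted through Aged + LRP1high, Aged and Young to Aged + LRP1low. For Zp3 the group means were 9.62 ± 0.909 (SD, n = 2), 8.72 ± 1.5 (n = 3), 6.39 ± 5.0 (n = 2), 5.90 ± 4.48 (n = 3) and 2.55 ± 0.288 (n = 2). The ranges of every pair of neighbours in this order overlapped. Young 1 and Aged 1 were the lowest libraries of their groups, and the 7 other oocyte genes were low in them too.

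Replicates were numbered as biological in the labels, and p-values measure the spread between these libraries. Differences between groups were tested with limma on log2(FPKM + 1) over 28004 genes, with all oocyte groups in one model. Calls required a Benjamini-Hochberg adjusted p under 0.05 together with a more than 1.5-fold difference, and the change on this scale understates that of genes near 0. For ageing, the difference between Aged and Young oocytes was 1.16 ± 1.58 (SE) for Zp1, 0.71 ± 2.31 for Zp2 and 0.49 ± 2.37 for Zp3. None of the 3 genes was called with limma, at an adjusted p of 0.719, 0.895 and 0.935, and none passed at an unadjusted p under 0.05 either. Over all genes 0.0964% were called in this comparison, and 8.65% passed unadjusted. Without Young 1 and Aged 1 the differences were 0.87, 1.44 and 1.5, with Aged 2 the only Aged library left.

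**Figure D2:**
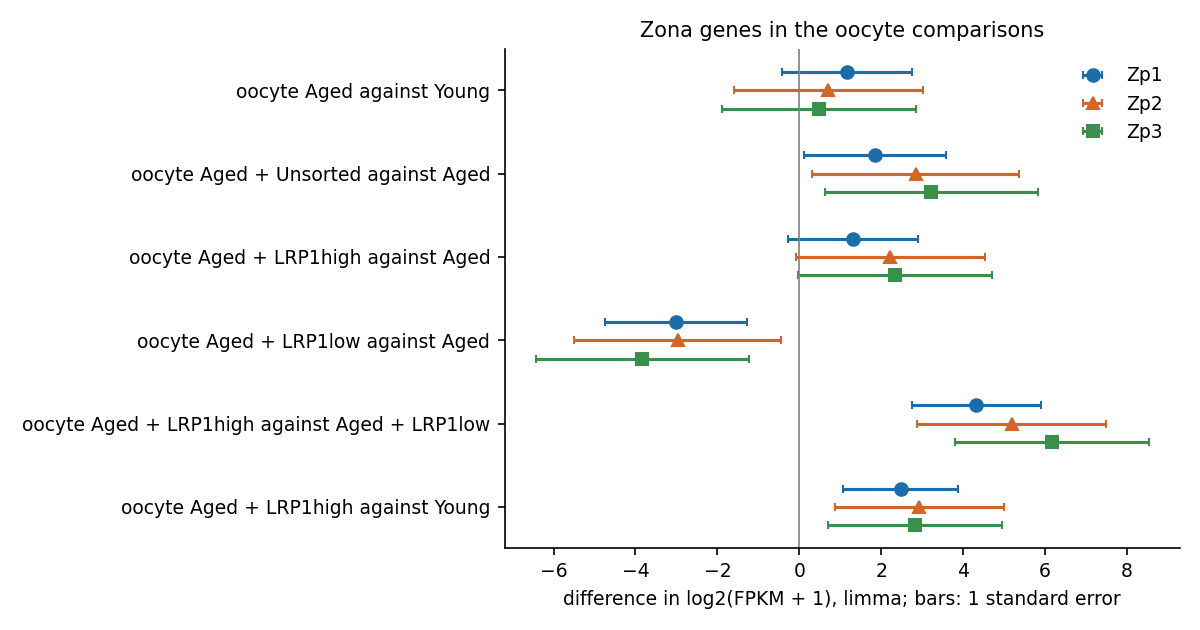
Differences in log2(FPKM + 1) between oocyte groups for each zona gene from the limma model with 12 libraries; points are estimates and bars are 1 standard error. The estimates for Aged + LRP1high against Aged + LRP1low, 4.33 to 6.17, are farthest from 0, and those for Aged against Young lie within 1 standard error of 0.

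The question behind the transplantations was whether they move the aged ovary towards the young state. Against Aged oocytes, the zona genes in Aged + Unsorted oocytes were higher by 1.86 ± 1.73 (Zp1), 2.84 ± 2.53 (Zp2) and 3.23 ± 2.60 (Zp3). With Aged + LRP1high the differences were 1.31 ± 1.58, 2.23 ± 2.31 and 2.33 ± 2.37. No zona gene was called with limma in either comparison, adjusted or unadjusted. The adjusted p was 0.478 to 0.534 with Aged + Unsorted and 0.558 to 0.632 with Aged + LRP1high, and 0% and 0.771% of all genes were called (8.74% and 10.9% unadjusted). These differences rested on Aged 1. When Young 1 and Aged 1 were left out, Aged 2 alone stood for Aged, so these values are given with no test. Aged + LRP1high lay below Aged 2 for every zona gene, by -0.27, -0.98 and -1.20. Aged + Unsorted lay above Aged 2 by 0.28 for Zp1 and below it by -0.36 and -0.31 for Zp2 and Zp3.

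In Aged + LRP1low oocytes the estimates for the zona transcripts lay below those in Aged oocytes, by -3.02 ± 1.73 for Zp1, -2.97 ± 2.53 for Zp2 and -3.84 ± 2.60 for Zp3. With limma none of the 3 genes was called, adjusted or unadjusted, at an adjusted p of 0.495, 0.665 and 0.578, while 3.17% of all genes were called (14.1% unadjusted). Without Young 1 and Aged 1, a single Aged library remained, which is assumed to vary like the other groups. The differences were then -4.60, -6.17 and -7.38. Aged 1 was left out for low oocyte genes while the Aged + LRP1low libraries, in which these genes were as low, were kept, so the larger size follows from the choice of libraries and is given with no test.

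The groups that received sorted cells were also compared with each other. Each of the 3 zona genes was higher in all 3 Aged + LRP1high than in both Aged + LRP1low libraries, by 4.33 ± 1.58 for Zp1, 5.19 ± 2.31 for Zp2 and 6.17 ± 2.37 for Zp3. With limma none of the 3 genes was called, at an adjusted p of 0.0597, 0.0967 and 0.0671, and all 3 had an unadjusted p under the threshold (0.0194, 0.0462 and 0.0247). In this comparison 26.0% of all genes were called in either direction and 1.21% as higher in Aged + LRP1high, and 49.1% and 3.17% were so at the unadjusted threshold. The call turned with the libraries in the model that are in neither group. It was made for 2 genes without Young 1 and for 1 without Young 3, Aged 1 or Aged 2. With only the compared groups in the model it was made for all 3, as for 66.9% of all genes.

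The Aged + LRP1low oocyte libraries also stood apart in features other than the zona genes. They had 47920 and 38934 identifiers at 1 FPKM or more, against 3135 to 27970 in the other oocyte libraries, and the smallest amounts of aligned sequence, 0.515 and 0.278 gigabases. Their summed granulosa, stromal and luteal markers were 40.3 to 48.4, 33.4 to 38.8 and 32.8 to 33.1 FPKM, with every gene of these lists at 1 FPKM or more, while in Aged + LRP1high oocytes the sums were 0.259 to 16.8, 0.289 to 1.25 and 0.143 to 8.92 FPKM. Aged 1 was near the Aged + LRP1low libraries with sums of 31.0, 32.6 and 23.1 FPKM, and Young 2 had a granulosa sum of 76.6 FPKM, above both of them. The part of these library differences in the zona result was not tested. The median FPKM of the granulosa, stromal, luteal and 7 immune genes was 4.81, 6.04, 4.47 and 5.50 in Aged + LRP1low 1. In Aged + LRP1low 2 it was 3.56, 4.30, 4.37 and 3.14. In bulk RNA of this kind, such library-wide features, fewer oocytes and less RNA per oocyte cannot be told apart.

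Another yardstick was the family of 10 other ZP-domain genes, such as Umod of the kidney, Tecta and Tectb of the inner ear and Gp2 of the pancreas, which have their main sites outside the oocyte. In the Aged + Unsorted and Aged + LRP1high oocyte libraries the median FPKM of these genes was 0 to 0.199. In Aged 1 the median was 3.53 FPKM and the highest 19.9 FPKM, a range that held its Zp2 and Zp3 (4.41 and 6.23 FPKM). In Aged + LRP1low 1 they ranged from 2.24 to 6.55 FPKM with a median of 4.53, beside 3.39 to 8.83 for the zona genes. In Aged + LRP1low 2 they ranged from 1.22 to 8.33 FPKM with a median of 2.82, beside 4.09 to 8.32. Of the 6 zona values in these libraries, 5 lay within the range of the other ZP-domain genes of the same library. Zp1 in Aged + LRP1low 1 lay above it. Eng alone set the upper end in both libraries, at 6.55 and 8.33 FPKM. The next highest were Tecta at 4.75 FPKM in Aged + LRP1low 1 and Tectb at 5.93 FPKM in Aged + LRP1low 2. Zp3 in the first library (5.75 FPKM) and Zp1 and Zp2 in the second (6.89 and 8.32 FPKM) lay above these.

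Against Young oocytes, Aged + LRP1high oocytes had higher zona levels by 2.47 ± 1.42, 2.93 ± 2.07 and 2.82 ± 2.12, with an adjusted p of 1 for each gene in limma, 0 of 3 genes called adjusted or unadjusted and 0% of all genes called (3.17% unadjusted). Without Young 1 and Aged 1 these differences were 0.60, 0.46 and 0.29.

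Because the zona genes and the other oocyte genes were low in the same libraries, each zona gene was also expressed relative to the mean log2(FPKM + 1) of the 7 other oocyte genes of its library. On this scale the spread over the 12 oocyte libraries shrank from an SD of 2.40 to 1.11 for Zp1, from 3.24 to 0.67 for Zp2 and from 3.52 to 0.66 for Zp3. The relative level of Zp3 ran from -1.19 to 1.01, around the level of the other oocyte genes, and that of Zp2 from -2.54 to -0.30. Relative Zp1 was -2.06 to -1.59 in the Aged + Unsorted and Aged + LRP1high libraries, and it was 0.10, -0.39 and -1.87 in Young oocytes. Aged oocytes had 0.85 and -1.83, and Aged + LRP1low oocytes 0.86 and -0.55. Young 1, Young 2, Aged 1 and both Aged + LRP1low libraries thus had the highest relative Zp1.

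Relative to these genes, Aged and Young oocytes differed by 0.23 for Zp1, -0.23 for Zp2 and -0.45 for Zp3, with p = 0.9, 0.5 and 0.6 in two-sided exact permutation tests. Aged + LRP1high against Aged gave -1.22, -0.30 and -0.20 with exact p = 0.3, 0.9 and 0.8, and Aged + LRP1high against Young gave -0.99, -0.53 and -0.65 with exact p = 0.3, 0.6 and 0.4. With 2 or 3 libraries in a group the smallest p these tests allow is 0.1. These were 9 tests, and no p reached 0.1. The difference of 6.17 in Zp3 between Aged + LRP1high and Aged + LRP1low was -0.018 on the relative scale. Those of Zp2 and Zp1 were -1.0 and -1.86, so none of the 3 estimates was above 0 on this scale. In the Aged + LRP1low libraries the 7 genes were themselves low, with medians of 4.76 and 8.35 FPKM beside 4.53 and 2.82 for the ZP-domain genes. The relative scale therefore cannot show whether zona RNA kept its proportion to oocyte RNA there.

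**Figure D3:**
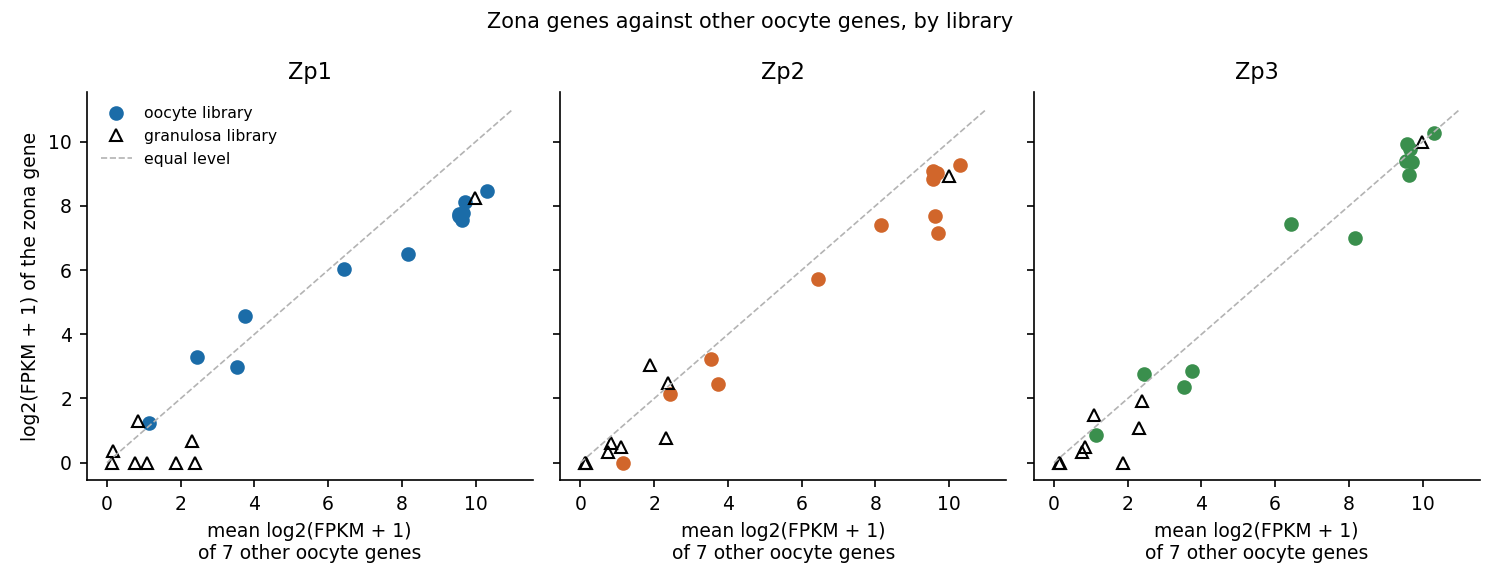
Each zona gene against the mean of the 7 other oocyte genes in the same library, both as log2(FPKM + 1); filled points are oocyte libraries, open triangles are granulosa libraries and the dashed line marks equal levels. The libraries lie along the line over the whole range for Zp3, below it at high levels for Zp1, and 1 granulosa library, labelled Aged + Unsorted, lies among the strong oocyte libraries.

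The proportions of the 3 transcripts were taken as the share of each gene in the summed zona FPKM of a library. The Zp3 share was 36.9%, 59.7% and 47.7% in Young oocytes, 18.5% and 59.1% in Aged oocytes and 56.1% and 55.8% in Aged + Unsorted oocytes. It was 54.1%, 61.4% and 33.1% in Aged + LRP1high oocytes and 32.0% and 21.2% in Aged + LRP1low oocytes. By FPKM both Aged + LRP1low libraries thus lay below all 3 Aged + LRP1high libraries, by little for Aged + LRP1high 3, and by coverage the groups overlapped (33.7% to 41.6% against 41.1% to 66.7%). The Zp2 share ran from 0 to 43.6%, with the highest value in Aged + LRP1high 3, where Zp2 was the largest part. The Zp1 share was 12.9% to 25.5% in the oocyte libraries other than Young 1, Aged 1 and the Aged + LRP1low libraries, in which it was 35.7% to 68.3%. The summed zona FPKM of the Aged + LRP1low libraries was 18.0 and 19.3, so their shares rest on low levels. The library labelled granulosa Aged + Unsorted had a Zp3 share of 56.3%, beside the 55.8% and 56.1% of the oocyte libraries of that condition. By read coverage in place of FPKM the median Zp3 share was higher in each oocyte group, at 61.8% in Aged + Unsorted and 61.3% in Aged + LRP1high.

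**Figure D4:**
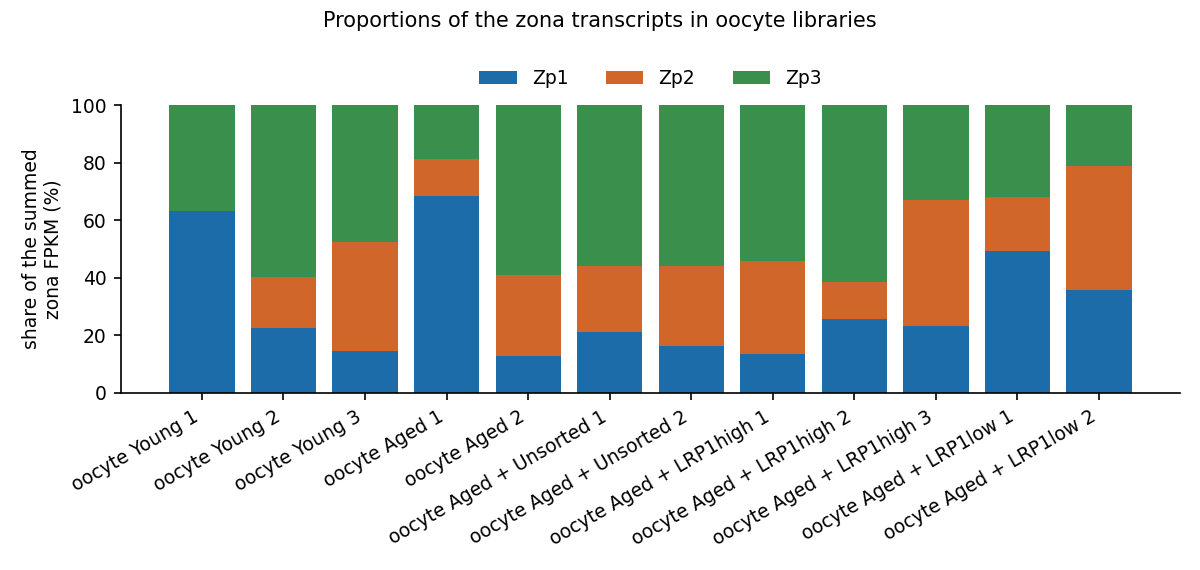
Share of each zona gene in the summed zona FPKM, in percent, in the 12 oocyte libraries; each bar is 1 library and the colours are the genes. Zp3 is the largest part in both Aged + Unsorted libraries and in 2 of the 3 Aged + LRP1high libraries, and Aged + LRP1high 3 has a Zp2 share of 43.6%.

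In granulosa cells the zona transcripts were near 0 except in the library labelled Aged + Unsorted, which had 301, 492 and 1019 FPKM of Zp1, Zp2 and Zp3. In the other 8 granulosa libraries Zp1 was listed at 0 in 5 and reached at most 1.44 FPKM. Zp2 reached 4.60 FPKM in Young and 7.18 in Aged + LRP1high 1, and was 0.693 or less in the other 6. Zp3 reached 2.82 FPKM in Young and 1.82 in Aged + LRP1low 1. Both Aged granulosa libraries had 0 FPKM of Zp2 and of Zp3, and 0.300 and 0 of Zp1. These libraries and Aged + LRP1high 2 had 0 of the 10 granulosa genes at 1 FPKM or more, and Aged + LRP1low 2 had 1. Zona values near 0 in them therefore cannot be read as levels in granulosa cells. In the Young granulosa library Zp2 and Zp3 stood beside 10.5 FPKM of Gdf9, an oocyte-secreted growth factor, and 703 FPKM of the granulosa gene Inha, and how much oocyte RNA contributed was not tested.

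The zona genes passed the filter of a mean of 1 FPKM in granulosa cells with the help of the library labelled Aged + Unsorted, and without it Zp1 and Zp3 did not pass. Of 13002 genes tested with limma, 31.8% were called between Aged and Young granulosa cells and 31.4% called as lower in Aged (48.7% in either direction unadjusted), and Young held 1 library, assumed to vary like the other groups. The model also called 1 of the 3 zona genes, Zp3, with a difference of -1.93 ± 0.48 (adjusted p = 0.0311), at 2.82 FPKM in Young and 0 in both Aged libraries. This call is no valid test, since Zp3 entered the model through the library labelled Aged + Unsorted (mean of 0.80 FPKM without it) and the Young group is 1 library. It was also lost without either Aged library. Without Aged + LRP1high 1, Zp2 was called beside Zp3, by the same model. With all libraries Zp2 differed by -2.49 ± 1.14 (adjusted p = 0.136) and Zp1 by 0.19 ± 0.73 (adjusted p = 0.916).

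After transplantation no zona gene in granulosa cells passed the adjusted threshold. The Aged libraries that served as the baseline, and part of the treated libraries, are low in granulosa markers as described above. In Aged + LRP1high the differences were 0.24 ± 0.54 for Zp1, 1.33 ± 0.85 for Zp2 and 0.27 ± 0.36 for Zp3, and in Aged + LRP1low they were 0.14 ± 0.59, 0.62 ± 0.93 and 1.29 ± 0.39. With limma, 0 of 3 genes were called in either comparison, as were 0% of all genes. At an unadjusted p under 0.05, 0 and 1 of the 3 genes passed, against 8.51% and 3.79% of all genes. The 1 gene was Zp3, higher in Aged + LRP1low (adjusted p = 0.904 in limma) at 1.82 and 1.12 FPKM against 0 in both Aged libraries, and this pass too depends on the library labelled Aged + Unsorted, without which Zp1 and Zp3 were not tested. Without it the differences of Zp2 were 1.33 and 0.62 as before (adjusted p = 0.485 and 1 in limma).

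Between the cell types, the zona genes were higher in oocytes. Over all 21 libraries the mean log2(FPKM + 1) of Zp1 was 6.00 ± 2.40 (SD, n = 12) in oocytes and 1.17 ± 2.69 (n = 9) in granulosa cells, a difference of 4.83 with p = 0.000983 in a two-sided exact permutation test. For Zp2 the difference was 4.15 (exact p = 0.00901) and for Zp3 it was 5.05 (exact p = 0.00467). Without the library labelled granulosa Aged + Unsorted the differences were 5.71, 5.04 and 6.08, with exact p = 4.76e-05, 0.00122 and 0.000500. In that comparison 11 of 12 oocyte libraries were above every granulosa library for Zp1 and for Zp3, and 9 of 12 for Zp2. The library labelled granulosa Aged + Unsorted was left out after its oocyte profile was seen, while oocyte libraries low in oocyte genes were kept. The smaller p-values without it are therefore no independent test. Granulosa libraries low in granulosa genes were kept throughout. All 6 tests concerned the same genes, and their p-values are given unadjusted. These genes are classical oocyte markers, so the direction was known beforehand.

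With conditions weighted equally in limma over 21767 genes, the difference was 4.12 ± 0.69 for Zp1 (adjusted p = 0.0180), 3.94 ± 1.00 for Zp3 (adjusted p = 0.0433) and 3.25 ± 1.00 for Zp2 (adjusted p = 0.0824). The calls of 2 of the 3 genes stood beside 3.00% of all genes called (21.4% unadjusted) and 2.91% called as higher in oocytes. All 3 were called without the library labelled granulosa Aged + Unsorted, which takes out the high values among granulosa libraries, beside 15.2% of all genes. Leaving out any other library gave 0 to 3 calls, with 0 without either granulosa Aged library or Aged + LRP1low oocyte 1. The zona genes are classical oocyte markers. In the 8 granulosa libraries without Aged + Unsorted their means were 0.290, 1.71 and 0.802 FPKM for Zp1, Zp2 and Zp3. Choice of genes and filter thus favoured this direction, and the calls are no independent test. Whether the change after transplantation differed between the cell types was tested as an interaction. For Aged + LRP1high the difference between the cell types was 0.89 to 2.06 and for Aged + LRP1low it was -5.13 to -3.16, with 0 of 3 genes called by limma adjusted or unadjusted. Of all genes 0% were called in either, and 16.0% and 6.41% passed unadjusted.

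Genes that act upstream, beside or after the zona proteins were examined as a list of 16. Figla, the transcription factor, did not run in parallel with its targets at the level of single libraries. Young oocytes had 0.914, 2.30 and 18.7 FPKM of Figla, Aged oocytes 14.0 and 0, Aged + Unsorted oocytes 1.40 and 31.2, and the sorted groups 7.71, 26.0 and 0.886 in Aged + LRP1high and 10.1 and 0 in Aged + LRP1low. Aged 2, with 972 FPKM of Zp3, was thus listed at 0 for Figla, while Aged 1, with 6.23 FPKM of Zp3, had 14.0 FPKM. That value lay within the range of the other ZP-domain genes of Aged 1, of which Tectb reached 19.9 FPKM. Figla was low, with a median of 5.01 FPKM over the 12 oocyte libraries. Whether its single values follow oocyte RNA was not tested. Nobox, a homeobox factor of oocytes, had 0.580, 61.3 and 87.7 FPKM in Young, 0 and 53.1 in Aged, and 4.83 and 6.21 in Aged + LRP1low, against 26.3 to 176 in the Aged + Unsorted and Aged + LRP1high libraries.

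Astl encodes ovastacin, the cortical granule protease that cleaves ZP2 after fertilization. Young oocytes had 1.91, 17.4 and 43.7 FPKM of Astl, Aged oocytes 3.26 and 53.1, Aged + Unsorted oocytes 28.9 and 98.6, Aged + LRP1high oocytes 75.3, 68.0 and 18.6, and Aged + LRP1low oocytes 5.39 and 2.21. The lowest library of each group was the one lowest in summed zona FPKM, except in Aged + LRP1low. Izumo1r, the egg receptor for sperm Izumo1 also known as Juno, was at 0.474, 0 and 90.7 FPKM in the Young libraries and at 3.75 and 176 in the Aged ones. Aged + Unsorted oocytes had 122 and 174 FPKM of it, Aged + LRP1high oocytes 128, 236 and 24.7, and Aged + LRP1low oocytes 6.29 and 2.91. Young 2 was thus listed at 0 for Izumo1r beside 174 FPKM of Zp3. Cd9, an egg tetraspanin needed for fusion, had 0, 90.0 and 81.5 FPKM in Young oocytes, 0 and 41.4 in Aged and 1.14 and 56.5 in Aged + Unsorted. Its range was 3.55 to 155 FPKM in Aged + LRP1high, and Aged + LRP1low had 14.4 and 8.59. Furin, a proprotein convertase, had 7.01, 0.234 and 41.2 FPKM in Young oocytes, 6.60 and 12.9 in Aged, 13.9 and 12.5 in Aged + Unsorted, 42.6, 28.2 and 69.5 in Aged + LRP1high and 8.82 and 3.81 in Aged + LRP1low, and so was not high in every library high in zona transcripts.

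Between Aged + LRP1high and Aged + LRP1low oocytes, 15 of the 16 genes were tested, 3 were called higher and none lower by limma, with a median difference of 3.06 against -1.89 over all genes and 1.21% of all genes called higher. The called genes were the oocyte-secreted proteins Oosp1 (7.60 ± 2.31, adjusted p = 0.0402), Oosp2 (6.46 ± 1.95, adjusted p = 0.0394) and Oosp3 (6.75 ± 2.06, adjusted p = 0.0405), and Oosp1 is also among the 7 oocyte genes. Astl differed by 3.37 ± 1.32 and Figla by 1.19 ± 1.70 without being called. Most of the list is known from oocytes, and the 7 oocyte genes were low in both Aged + LRP1low libraries. The higher direction was thus favoured beforehand, and the count of 3 is no independent test. Between Aged and Young oocytes, and for Aged + Unsorted or Aged + LRP1high against Aged, 0 of the 15 genes were called by limma, against 0.0964%, 0% and 0.771% of all genes. At an unadjusted p under 0.05, 0, 1 and 0 passed, against 8.65%, 8.74% and 10.9%. For Aged + LRP1low against Aged, 1 passed as higher and 2 as lower (14.1% of all genes). For Aged + LRP1high against Young, 4 passed as higher (3.17% of all genes), and oocyte genes were low in Young 1. Between Aged + LRP1high and Aged + LRP1low, 7 passed as higher and 1 as lower (49.1% of all genes). Between oocytes and granulosa cells, 8 of 14 tested genes were called higher in oocytes and none lower, against 2.91% of all genes called higher. Among them were Lhx8 (3.03 ± 0.58, adjusted p = 0.0237) and Astl (2.74 ± 0.58, adjusted p = 0.0275). The list was chosen mostly from genes known from oocytes. Without the library labelled Aged + Unsorted, the granulosa mean was 0.424 FPKM for Lhx8 and 0.437 for Astl. Choice of list and filter thus favoured this direction, and the count is no independent test.

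The genes whose profile was most like that of the mean zona level were ranked over the 12 oocyte libraries among 4066 genes with a mean of at least 10 FPKM. The highest Pearson coefficients were 0.989 for Gm13084, 0.988 for Oog2, 0.987 for Gm13023, 0.986 for Magoh and 0.986 for Khdc1b. Oog2 and Khdc1b belong to gene families known from oocytes and early embryos, and Magoh is a subunit of the exon junction complex. Gm13084 had 0.679, 96.8 and 313 FPKM in Young oocytes and 3.93 and 2.10 in Aged + LRP1low oocytes, low in the same libraries as the zona genes. Among the 7 oocyte genes, H1foo was nearest with 0.981 at place 20. Figla, with a mean of 9.45 FPKM, was under the minimum and was not ranked. All points of these coefficients share library depth and oocyte RNA content. Ranked by Spearman coefficient, 1 of these 5 genes stayed among the leading 5 and 48 of the leading 100 were shared. Without the Aged + LRP1low libraries, 2 of 5 and 90 of 100 were shared.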

How the data were processed

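RNA was extracted from oocytes and granulosa cells and sequenced as 21 libraries. The paper's methods describe Smart-seq2 libraries and the labels a stranded polyA kit, and reads were aligned with HISAT2 2.2.1 and assembled with StringTie 1.3.3b per the submitters' processing notes. The authors deposited, per gene and library, the coverage (mean read depth, a signal), FPKM and TPM, and no read counts, so no counting intervals were computed. The labels name the build mm9, but 54577 of 55335 identifiers had the same coordinates as GENCODE M21 on GRCm38, which was used for positions. Between 4 and 21 identifiers repeated in a file were summed. StringTie adds the FPKM of a gene's transcripts, of which Zp1, Zp2 and Zp3 have 2, 5 and 2. Whether this accounts for the difference between FPKM and coverage shares was not tested.

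FPKM was analysed as log2(FPKM + 1), keeping genes with a mean of at least 1 in the libraries of the fit. Group differences were estimated in limma 3.58.1 (R 4.3.3; lmFit, eBayes) from a single model per cell type, or of all 10 groups, at the study's thresholds. Exact permutation tests compared single genes between cell types and relative to 7 oocyte genes. Coverage divided by FPKM, as the median of 21693 genes of 1 exon, gave the aligned gigabases. The model was tested on simulated data. Alternatives were the pseudocount, the filter, TPM, quantile normalization, centring on the oocyte genes, trend and robust estimation, a replicate block, only the compared groups and leaving out each library. Named genes are the 3 zona genes, lists of 16 related genes, 10 ZP-domain genes and markers of the follicle, and of the related genes Figla, Astl, Izumo1r, Cd9, Furin and up to 4 called with the largest change; Nobox and Gm13084 are printed in addition and were picked after their values were seen. Members, lists and tests were chosen with earlier results of these data known. Motifs and sequence were read from RefSeq promoters, and shared runs from GENCODE transcripts. Marker lists of further ovarian and blood cells were summed per library. The summed FPKM of the 7 immune genes was 35.0 to 64.7 in Aged and 35.9 to 43.6 in Aged + LRP1low oocytes and at most 15.9 in the other oocyte groups, that of the 5 red blood cell genes 0 to 28.2 in oocytes, and that of the 4 endothelial genes 0.192 to 26.1.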

Additional observations from a re-analysis of the deposited data

Results flagged for a closer look

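For Zp3, the Aged + LRP1low and Aged libraries were ordered in opposite ways in the cell types, although neither change was called by limma (adjusted p = 0.578 in oocytes and 0.904 in granulosa cells). In oocytes both Aged + LRP1low libraries (5.75 and 4.09 FPKM) lay below both Aged libraries (6.23 and 972). In granulosa cells both Aged + LRP1low libraries (1.82 and 1.12) lay above the Aged libraries, which were at 0. These Aged granulosa libraries had 0 of the 10 granulosa genes at 1 FPKM or more, and Aged + LRP1low 2 had 1. The oocyte values of 5.75 and 6.23 FPKM lay within the range of the other ZP-domain genes of their libraries (2.24 to 6.55 in Aged + LRP1low 1, up to 19.9 in Aged 1). The difference between the changes, oocyte minus granulosa, was -5.13 ± 3.01 on the log2 scale and was not called by limma (adjusted p = 0.872), where 0% of all genes were called. Relative to the 7 other oocyte genes the oocyte difference was -0.18, and Zp3 entered the granulosa model through the library with an oocyte profile. No group held enough libraries for a test of single outlying libraries.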

How the results depend on the processing

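No read counts were used, so the counting error of a low FPKM is unknown; with 2 or 3 libraries a group, an exact test of 3 against 2 cannot go below 0.1. Results called by the 2-library groups rest on few libraries, and reads per zona gene could not be computed. Replicate numbers showed no steady pairing between the groups of a cell type. Deviations of same-numbered libraries from their group means correlated by -0.436 to 0.441 over 21 oocyte pairs and by -0.0761 to 0.256 over 6 granulosa pairs. In a group of 2 libraries the deviations are equal and opposite, so this check cannot exclude pairing. Oocyte libraries were not checked against granulosa libraries. With the replicate number as a block, the called zona genes went from 1 to 0 in granulosa Aged against Young and from 2 to 1 in oocyte against granulosa, and Zp1 in granulosa Aged + LRP1high against Aged turned from positive to -0.19; it changed no other call of a zona gene.

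The number of called zona genes moved as follows. In oocyte Aged + LRP1high against Aged + LRP1low it was 0 with all settings as described, 1 with a mean FPKM of at least 10, 3 with only the groups compared and 3 at an unadjusted p. In granulosa Aged against Young the 1 called gene became 0 with a pseudocount of 0.1 or 10, a mean of at least 10, quantile normalization, or trend and robust estimation. In granulosa Aged + LRP1low against Aged the count went from 0 to 1 at an unadjusted p. In oocyte against granulosa the 2 called genes became 0 with a pseudocount of 10 or with trend and robust estimation, and 1 with no filter or with quantile normalization. The cause was not tested.

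Alternatives chosen after seeing the data left out libraries that stood apart. Without Young 1 and Aged 1 of the oocytes, 3 zona genes were called in Aged + LRP1high against Aged + LRP1low, 3 in Aged + LRP1low against Aged and 3 in the difference of that change between cell types, beside 51.3%, 39.6% and 7.45% of all genes. These calls are no independent test, since low libraries were left out of Young and Aged and equally low ones kept in Aged + LRP1low, and 1 Aged library remained. Aged + Unsorted against Aged turned to -0.36 for Zp2 and -0.31 for Zp3, Aged + LRP1high against Aged to -0.27, -0.98 and -1.20 for Zp1, Zp2 and Zp3, and the difference of this change between cell types to -0.50, -2.31 and -1.47. Without the granulosa library with an oocyte profile, 0 zona genes were called in granulosa Aged against Young.

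Directions turned under several scalings, in estimates that were mostly not called. With quantile normalization Aged against Young oocytes was -0.45 for Zp2 and -0.66 for Zp3, and Zp1 in granulosa cells was -0.40 for Aged + LRP1high and -0.032 for Aged + LRP1low against Aged. Centred on the 7 oocyte genes, Aged against Young oocytes was -0.23 for Zp2 and -0.45 for Zp3. For Zp1, Zp2 and Zp3 so centred, Aged + Unsorted against Aged was -1.46, -0.47 and -0.085, Aged + LRP1high against Aged -1.22, -0.30 and -0.20, Aged + LRP1high against Aged + LRP1low -1.86, -1.0 and -0.018, and Aged + LRP1high against Young -0.99, -0.53 and -0.65. Aged + LRP1low against Aged was then 0.64 for Zp1 and 0.69 for Zp2. With a pseudocount of 0.1 the difference between cell types in Aged + LRP1high against Aged was -1.22 for Zp2, and Zp2 relative to the oocyte genes was 0.55 in Aged against Young and 0.29 in Aged + LRP1high against Young. Relative to the median of the 7 genes, Zp1 was -0.17 in Aged against Young. By coverage in place of FPKM, the median share in the zona sum of Aged + Unsorted oocytes was 18.1% for Zp2 and 61.8% for Zp3, and in Aged + LRP1low oocytes it was 31.1% for Zp1 and 37.7% for Zp3, each a move of more than 1 SD between libraries.

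Leaving out each library in turn gave, for Aged against Young oocytes, -0.71 to 2.74 for Zp1, -2.50 to 3.91 for Zp2 and -3.05 to 4.02 for Zp3, with the lowest values without Young 1 or Aged 2. Aged + Unsorted against Aged was -0.36 to 6.05 for Zp2 and -0.31 to 6.77 for Zp3, and Aged + LRP1high against Aged was -0.27 to 2.89, -0.98 to 5.43 and -1.20 to 5.87 for the 3 genes. In each the direction turned without Aged 1. Zp2 in Aged + LRP1low against Aged was -6.17 to 0.24, the highest without Aged 2. Granulosa Zp1 was -0.19 to 0.45 in Aged + LRP1high and -0.19 to 0.47 in Aged + LRP1low against Aged. The difference of the Aged + LRP1high change between cell types was -0.50 to 2.65 for Zp1, -2.31 to 4.10 for Zp2 and -1.47 to 5.60 for Zp3. Relative to the oocyte genes, Aged against Young was -1.11 to 1.57 for Zp1, -0.52 to 0.061 for Zp2 and -1.07 to 0.17 for Zp3, Aged + LRP1high against Aged was -2.56 to 0.12, -0.64 to 0.31 and -0.82 to 0.42, and Zp2 in Aged + LRP1high against Young was -0.87 to 0.082. The called zona genes numbered 0 to 2 in Aged + LRP1high against Aged + LRP1low oocytes, 0 to 2 in granulosa Aged against Young and 0 to 3 in oocyte against granulosa. In these a lone library left in a group is assumed to vary like the other groups.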
